A study of Mus musculus with 6 samples.

Results

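The genes described here are the phase II transferases, enzymes that attach glutathione, glucuronic acid or sulfate to drugs, hormones and other small molecules. They were chosen by name from the gene_name column of the count table. The names start with Gsta, Gstm, Gstp, Gstt, Gsto, Gstk or Gstz and a digit, Mgst and a digit, Ugt1a, Ugt2a, Ugt2b or Ugt3a, or Sult and a digit. Of 34718 genes in the table, 64 are members, with 24 glutathione, 21 glucuronosyl and 19 sulfo transferase genes. A further 7 genes with pseudogene names (ending in -ps and a number) were left out.

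Glutathione S-transferases join the sulfur of glutathione to electrophiles, among them products of lipid peroxidation. Most are soluble enzymes, grouped by class letter (alpha, mu, pi, theta, omega, kappa, zeta), while the Mgst proteins are embedded in membranes. UDP-glucuronosyltransferases of the Ugt1 and Ugt2 families sit in the endoplasmic reticulum and use UDP-glucuronic acid, and sulfotransferases of the Sult family use the activated sulfate PAPS. Ugt3a1 and Ugt3a2 are counted with the glucuronosyl class by name only, and neither had a count. The liver is a main site of all 3 kinds of reaction, and the products leave the cell through ABC transporters.

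The RNA came from Hepa1-6, a mouse hepatoma cell line grown in culture, and was measured by sequencing in 6 libraries. The control group, titled shNC, and the group titled shZfp207, labelled Zfp207 knockdown, had 3 libraries each. The labels give no treatment or time, and the sources used here do not give the number or sequence of the hairpins, so effects of a hairpin other than loss of Zfp207 cannot be told apart from that loss. Nothing says that the replicates came from separate cultures, and all p-values then rest only on the spread of these libraries, which may be technical. Zfp207, which encodes a zinc finger protein that binds the spindle checkpoint protein BUB3, had 184.9 ± 40 CPM in control and 47.9 ± 0.614 CPM after knockdown (SD, n = 3 each), with a log2 fold change of -1.95 (standard error 0.17, edgeR's adjusted p = 0.00236).

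Unless stated otherwise, CPM are counts per 1000000 counts of the library after TMM scaling, and a fold change is knockdown over control. The libraries held between 11933736 and 16248346 counts, so that 3 counts, the most that an observed 0 allows at this depth (counting error only), were 0.185 to 0.251 CPM before scaling. Control replicate 1 stood apart, with 10.51% of its counts from mitochondrially encoded genes against 2.67% to 2.89% in the other controls and 5.6% to 6% in knockdown cells. Of 12 hepatocyte markers Alb, Afp, Apoe, Trf and Hnf4a were abundant, while Ttr, Ahsg, Serpina1a and Apoa2 had under 1 CPM, and the list summed to 4216 to 5451 CPM in control and 6645 to 6886 CPM in knockdown libraries. The 6 markers of endothelial cells summed to at most 2.1 CPM, and the 9 leukocyte markers to between 34.3 and 44.3 CPM, with Cd3e, Cd8a and Clec4f at 0 counts. The 8 fibroblast markers summed to 2020 to 2303 CPM in control and 2698 to 2809 CPM in knockdown libraries, nearly all from Dcn. The 6 bile duct markers, mostly Spp1, summed to 924 to 1062 CPM in control and 469 to 475.6 CPM in knockdown libraries. Their part in the results below was not tested.

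The glucuronosyltransferase genes Ugt2b34 and Ugt2b35 rose in knockdown cells and 5 glutathione transferase genes fell, while the 2 sulfotransferase genes with enough counts did not pass the test. Of the 64 members 22 had no count in any library, and 24 had enough counts to be tested. Of these 24, 4 were higher and 5 lower at an adjusted p below 0.05 in edgeR, that is 37.5% of those tested, against 20.6% of all 11975 genes tested (9.92% higher and 10.7% lower). Of 19 tested glutathione transferase genes 1 was higher and 5 lower. In bulk RNA, fewer cells of a kind and less RNA per cell cannot be told apart. The median log2 fold change of the 24 members was 0.02, against -0.03 over all genes tested. The 4 that rose were Gsta3, Ugt1a6b, Ugt2b34 and Ugt2b35, and the 5 that fell were Gsta4, Gsto1, Gstp1, Mgst1 and Mgst2. Gsta3 and Ugt1a6b entered the test only through their knockdown counts and are counted in the 37.5%, so that share leans on them. In 13 of the 24 members the 3 libraries of one group lay above the 3 of the other, against 5352 of all 11975 genes tested (44.7%). Gsta3 and Ugt1a6b are among the 13 too. Without control replicate 1, 5 members were higher and 6 lower among 25 tested, in a fit where 52.1% of all genes tested passed.

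**Figure D1:**
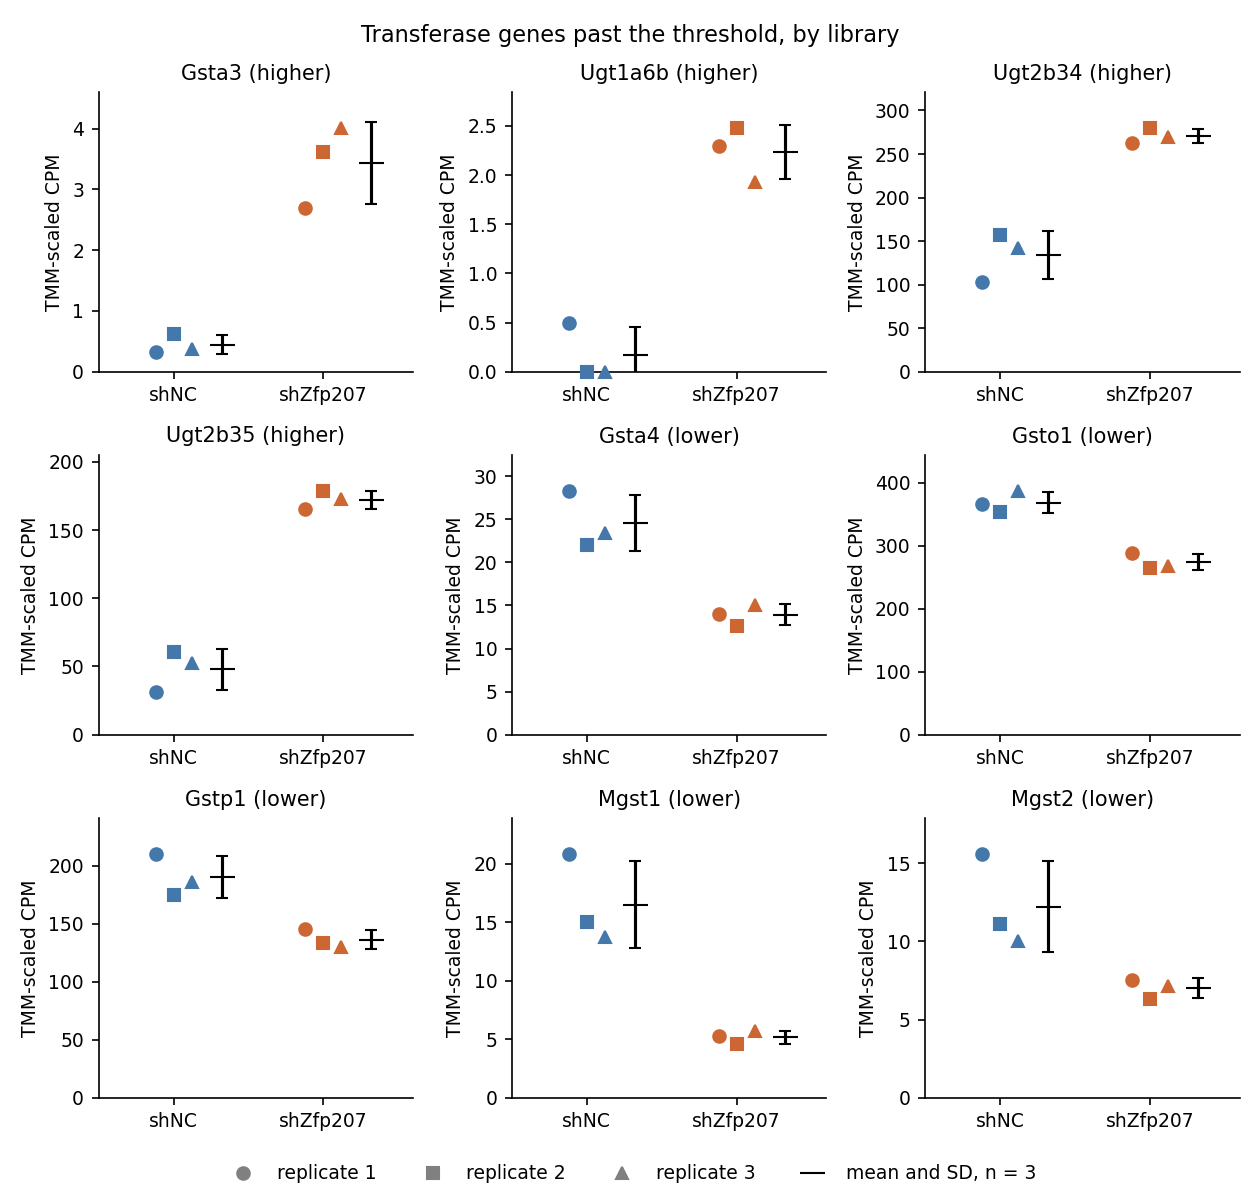
TMM-scaled CPM (y axis, from 0) of the 9 transferase genes past the threshold in each of the 3 shNC and 3 shZfp207 libraries, with the group mean and SD beside the points (the SD bar of Ugt1a6b in shNC ends at the axis). The groups do not overlap for any of the 9 genes, and control replicate 1 is the lowest control for Gsta3, Ugt2b34 and Ugt2b35 and the highest for Gsta4, Gstp1, Mgst1 and Mgst2.

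**Figure D2:**
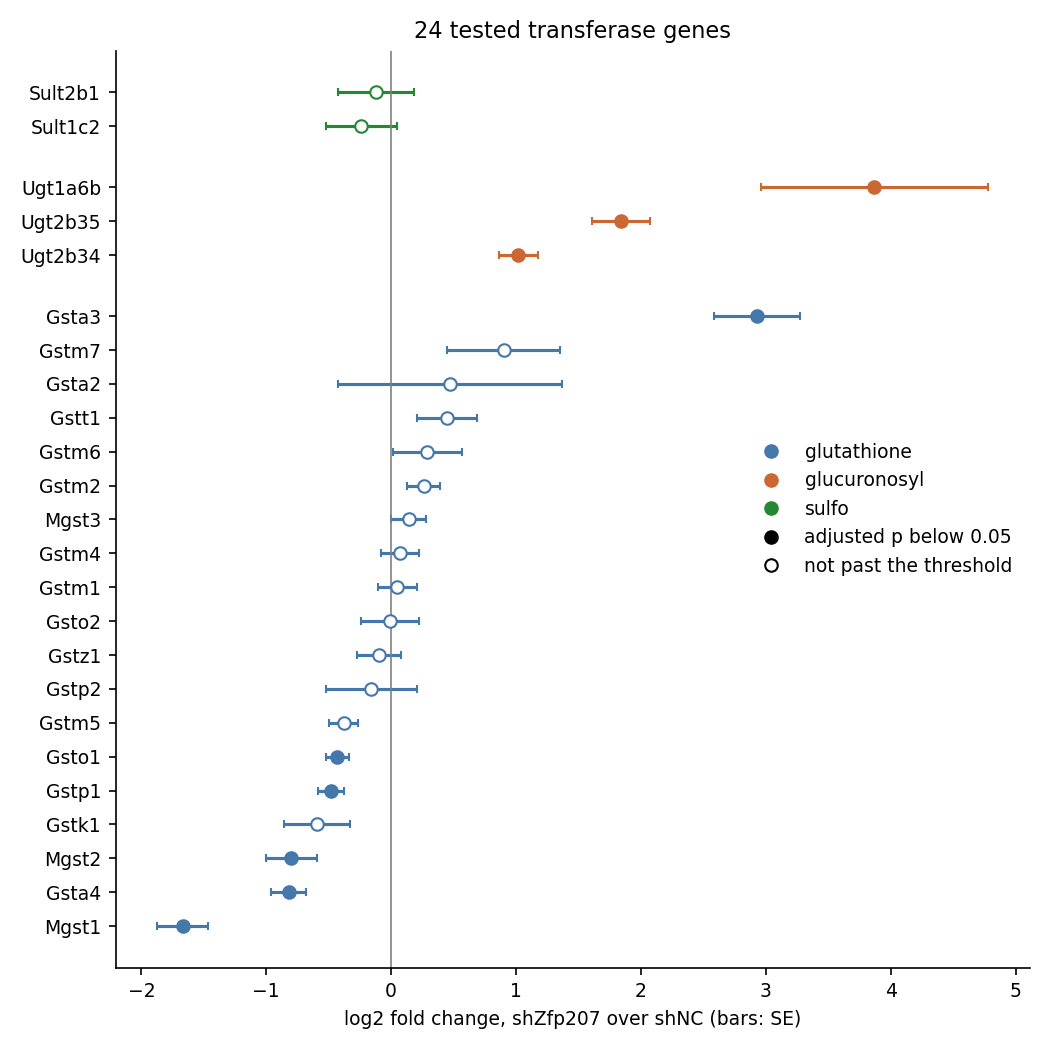
Log2 fold change (x axis, bars SE) of the 24 tested transferase genes, grouped by class, with filled points for genes past the threshold. All 3 tested glucuronosyltransferase genes lie right of 1, Gsta3 alone among the glutathione transferase genes passes on the right, and Mgst1 has the lowest value, -1.67.

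The alpha class held both the glutathione transferase gene that rose and 1 of those that fell. Gsta3 (ENSMUSG00000025934, chromosome 1, 21240589 to 21265661, plus strand) encodes an enzyme known in the mouse for detoxifying aflatoxin epoxide. It had 4, 9 and 6 counts in control replicates 1 to 3 and 41, 54 and 58 counts in knockdown replicates 1 to 3, which is 0.331, 0.619 and 0.368 CPM against 2.69, 3.61 and 4 CPM. Every knockdown library was thus above every control library, at a low level in both groups. The log2 fold change was 2.93 (standard error 0.347, edgeR's adjusted p = 0.00444), and the ratio of summed counts per library total was 7.66 (95% exact counting interval 4.74 to 13.1). Gsta3 had at most 9 counts in a control library and entered the test through its knockdown counts.

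Gsta4 (ENSMUSG00000032348, chromosome 9, 78191966 to 78209348) encodes the alpha class enzyme that conjugates 4-hydroxynonenal, an aldehyde from lipid peroxidation. It had 28.2, 22.1 and 23.4 CPM in the 3 control libraries, against 14, 12.6 and 15.1 CPM in the 3 knockdown libraries. The groups did not overlap, and the log2 fold change was -0.82 (standard error 0.142, edgeR's adjusted p = 0.0115). The call was lost without any 1 of the knockdown libraries, with adjusted p up to 0.0643. Gsta1, which starts 21307 bases beyond the end of Gsta4, had 2 counts in knockdown replicate 1 and 0 elsewhere. Gsta2 had 0 to 15 counts per library with no difference past the threshold (log2 fold change 0.47, standard error 0.895, edgeR's adjusted p = 0.746). Of the 50-base windows in Gsta1 transcripts 90.5% also occur in transcripts of other genes, and of those in Gsta2 49.8%, so reads of these 2 genes can be shared. For Gsta3 the figure was 0.3% and for Gsta4 0%.

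Gstp1 and Gsto1 were the most abundant members in deposited FPKM, and both fell. Gstp1 (ENSMUSG00000060803, chromosome 19, 4035407 to 4037921), the pi class gene that rises in many tumours, had 251.9 ± 25.4 FPKM in control and 178.6 ± 11.7 FPKM in knockdown cells (SD, n = 3 each). Its CPM were 209.8, 175 and 186.2 in control replicates 1 to 3 and 145.5, 133.1 and 130 in knockdown replicates 1 to 3, with no overlap. The log2 fold change was -0.48 (standard error 0.103, edgeR's adjusted p = 0.0218). Gsto1 (ENSMUSG00000025068, chromosome 19, 47854970 to 47864790), an omega class gene whose enzyme reduces dehydroascorbate and acts as a thioltransferase, had 148.2 ± 7.04 FPKM in control and 109.1 ± 5.58 FPKM in knockdown cells. Its CPM were 366.9, 353.3 and 386.4 in control replicates 1 to 3 and 288.3, 265.2 and 268.5 in knockdown replicates 1 to 3, again without overlap. The log2 fold change was -0.43 (standard error 0.089, edgeR's adjusted p = 0.0198). Both calls were lost without control replicate 3 or any 1 knockdown library, with adjusted p up to 0.112 for each gene.

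Their closest neighbours of the same class were far less abundant and did not pass. Gstp2, 2363 bases from Gstp1, had 18 to 30 counts per library and a log2 fold change of -0.16 (standard error 0.364, edgeR's adjusted p = 0.794). Of the 50-base windows of Gstp1 transcripts 33.7% also occur in other genes, above all Gstp2, and of those of Gstp2 54.3%, so the split of reads between them is uncertain. Gsto2, which starts 754 bases after Gsto1, had 28 to 46 counts per library and a log2 fold change of -0.01 (standard error 0.234, edgeR's adjusted p = 0.986).

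The 7 mu class genes lie on chromosome 3 between 107895821 and 108044894, and none passed the threshold. Gstm1 and Gstm2 were the most abundant, with 58.7 ± 11.2 and 41.6 ± 6.18 CPM in control and 60.8 ± 4.12 and 49.8 ± 2.38 CPM in knockdown cells. For Gstm2 the 3 knockdown libraries (50, 47.3 and 52.1 CPM) lay above the 3 controls (34.5, 44.7 and 45.6 CPM), but the log2 fold change of 0.26 did not pass (standard error 0.132, edgeR's adjusted p = 0.206). Gstm5 went the other way without overlap, from 27.6, 23.4 and 23.3 CPM to 19.3, 19 and 18.9 CPM (log2 fold change -0.38, standard error 0.114, edgeR's adjusted p = 0.0602). Its adjusted p was 0.0189 without control replicate 1 and at most 0.192 without another library, and 13.9% of its exonic bases overlap 4933431E20Rik on the opposite strand. For Gstm4, Gstm6 and Gstm7 the log2 fold changes were 0.07, 0.29 and 0.90 with edgeR's adjusted p of 0.768, 0.501 and 0.207, and Gstm3 had 0 to 4 counts per library. The pseudogene Gstm2-ps1, which is no member, had 22 to 68 counts per library, and 46.9% of its 50-base windows also occur in other genes, first among them Gstm1.

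The theta, kappa and zeta genes were lower in abundance and did not pass. Gstt1, the main expressed theta gene, had 5.38, 10 and 9.33 CPM in the 3 control libraries, against 12.3, 10.8 and 10.7 CPM in the 3 knockdown libraries, a log2 fold change of 0.45 (standard error 0.241, edgeR's adjusted p = 0.234). Gstk1, the mitochondrial and peroxisomal kappa gene, had 8.53, 5.64 and 4.6 CPM against 4.52, 4.15 and 3.73 CPM (log2 fold change -0.59, standard error 0.264, edgeR's adjusted p = 0.159). In both genes the groups did not overlap, and control replicate 1 was the library farthest from the knockdown values. Without it the log2 fold changes were 0.22 and -0.31. Gstz1, which encodes the maleylacetoacetate isomerase of tyrosine breakdown, had 11.7 ± 1.99 CPM in control and 10.9 ± 1.24 CPM in knockdown cells (log2 fold change -0.10, standard error 0.176, edgeR's adjusted p = 0.712). Gstt2 had 20, 16 and 0 counts in control replicates 1 to 3 and 2, 1 and 5 in the knockdown replicates, too few for the filter with all libraries. Looser filters gave adjusted p of 0.286 in edgeR and 0.232 in DESeq2. Gstt3 had at most 1 count, and Gstt4 had none.

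Of the membrane-bound transferase genes, Mgst1 and Mgst2 fell and Mgst3 did not pass. Mgst1 (ENSMUSG00000008540, chromosome 6, 138140316 to 138156755, plus strand) encodes a trimeric enzyme of the endoplasmic reticulum and outer mitochondrial membrane with transferase and peroxidase activity. It had 20.8, 15 and 13.8 CPM in the 3 control libraries, against 5.31, 4.55 and 5.66 CPM in the 3 knockdown libraries. The groups stood far apart, with a log2 fold change of -1.67 (standard error 0.203, edgeR's adjusted p = 0.0046), 3.18-fold lower, and the call was kept with each library left out (-1.79 to -1.47, adjusted p up to 0.0373). Mgst2 (chromosome 3, 51660360 to 51682677), whose enzyme can also form leukotriene C4, had 15.6, 11.1 and 10 CPM against 7.54, 6.28 and 7.17 CPM. Its log2 fold change was -0.80 (standard error 0.203, edgeR's adjusted p = 0.0358), and the call did not hold without control replicate 2 or without any 1 knockdown library (adjusted p up to 0.136). Mgst3, the most abundant of the 3 in FPKM, had 22.7 ± 3.02 FPKM in control and 24.9 ± 1.76 FPKM in knockdown cells (log2 fold change 0.14, standard error 0.137, edgeR's adjusted p = 0.496).

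The promoters of Gsta3 and Mgst1 are shown because, among the glutathione transferase genes tested with all 6 libraries, these had the largest rise and the largest fall, and both windows hold the core of the antioxidant response element (TGACNNNGC), the motif of the transcription factor NRF2. Sequences are the 250 bases before the RefSeq start in GRCm38.p6, written 5′ to 3′ on the strand of the gene, chr1:21240335-21240584 (plus) and chr6:138140277-138140526 (plus). Capitals mark matches to 2 motifs searched on both strands, the antioxidant core and GCGTG, the xenobiotic response element core bound by the aryl hydrocarbon receptor.
Gsta3: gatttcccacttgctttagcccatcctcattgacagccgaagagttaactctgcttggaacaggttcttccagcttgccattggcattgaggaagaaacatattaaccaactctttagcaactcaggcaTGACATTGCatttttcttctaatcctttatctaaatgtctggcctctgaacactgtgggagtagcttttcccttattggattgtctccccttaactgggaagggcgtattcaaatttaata
Mgst1: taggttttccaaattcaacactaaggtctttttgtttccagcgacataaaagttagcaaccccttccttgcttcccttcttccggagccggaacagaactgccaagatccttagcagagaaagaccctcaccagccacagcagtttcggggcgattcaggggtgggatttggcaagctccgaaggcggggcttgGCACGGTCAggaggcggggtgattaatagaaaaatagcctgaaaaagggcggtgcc
The Gsta3 window holds TGACATTGC, 121 to 113 bases before the start. The Mgst1 window holds the antioxidant core in reverse, 56 to 48 bases before the RefSeq start used, which is the nearer of 2 listed and lies 211 bases from the deposited gene start. These are matches of letters, and no binding was measured. Of all 32851 promoter windows of this length 10.2% hold the antioxidant core and 28.2% the xenobiotic core. The sequence table matched 56 of the 64 members, of which 4 and 10 hold the motifs in that order before at least 1 of their listed starts. The 4 with the antioxidant core were Gsta3, Gstm5, Gstm7 and Mgst1, of which Gsta3 rose, Mgst1 fell and the other two did not pass. In Gstm5 it overlaps a match to the xenobiotic core. Of the other called members in the table, the Gstp1 window holds GCGTG 13 to 9 bases before the start, and those of Gsto1 and Mgst2 hold neither motif.

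Of 21 glucuronosyltransferase genes, Ugt2b34, Ugt2b35 and Ugt1a6b were tested and rose, and Ugt1a6b was testable only through its knockdown counts. Ugt2b34 and Ugt2b35 together held 98.9% to 99.4% of the glucuronosyltransferase counts in each library (95% Clopper-Pearson intervals within 98.3% to 99.6%, counting error only). Ugt2b enzymes are known for conjugating steroids, bile acids and drugs. Ugt2b35 (ENSMUSG00000035811, chromosome 5, 87000860 to 87013275, plus strand) had 31.1, 60.3 and 52.6 CPM in the 3 control libraries, against 165.1, 178.2 and 173 CPM in the 3 knockdown libraries. Control replicate 1 was the lowest library, and the lowest knockdown library was 165.1 CPM against a highest control of 60.3 CPM. The log2 fold change was 1.84 (standard error 0.234, edgeR's adjusted p = 0.00533), 3.58-fold, and leaving out any 1 library gave 1.61 to 2.03, always past the threshold.

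Ugt2b34 (ENSMUSG00000029260, chromosome 5, 86889767 to 86906937, minus strand) had 103, 156.5 and 142.1 CPM in the 3 control libraries, against 263.2, 279.3 and 269.7 CPM in the 3 knockdown libraries. The groups did not overlap, and control replicate 1 was again the lowest. The log2 fold change was 1.02 (standard error 0.16, edgeR's adjusted p = 0.0089), 2.02-fold. The call was lost without knockdown replicate 2 or 3, with adjusted p up to 0.0517, while the log2 fold change stayed between 0.86 and 1.14. In deposited FPKM, Ugt2b34 had 21.4 ± 4.29 FPKM and Ugt2b35 14.3 ± 4.41 FPKM in control cells, against 43 ± 1.13 and 50.8 ± 1.72 FPKM after knockdown (SD, n = 3 each). Which of the 2 genes was higher depends on the length used. Per 1000 exonic bases of GENCODE, Ugt2b34 had 31 ± 6.42 CPM and Ugt2b35 14.3 ± 4.5 CPM in control cells, against 62.8 ± 1.88 and 51.2 ± 1.97 CPM after knockdown, so that Ugt2b34 was higher in both groups, as it was in CPM without a length.

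Between these neighbours the balance of counts moved towards Ugt2b35 in every knockdown library. The ratio of Ugt2b35 to Ugt2b34 counts, which does not depend on scaling between libraries, was 0.302, 0.385 and 0.37 in control replicates 1 to 3 and 0.627, 0.638 and 0.642 in knockdown replicates 1 to 3. The means were 0.353 ± 0.044 and 0.636 ± 0.008, and an exact permutation test of these ratios (two-sided, 3 against 3) gave p = 0.1, which is also the lowest p possible here. No more than 1.4% of the 50-base windows of Ugt2b34 and 0.3% of those of Ugt2b35 occur in transcripts of another gene.

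**Figure D3:**
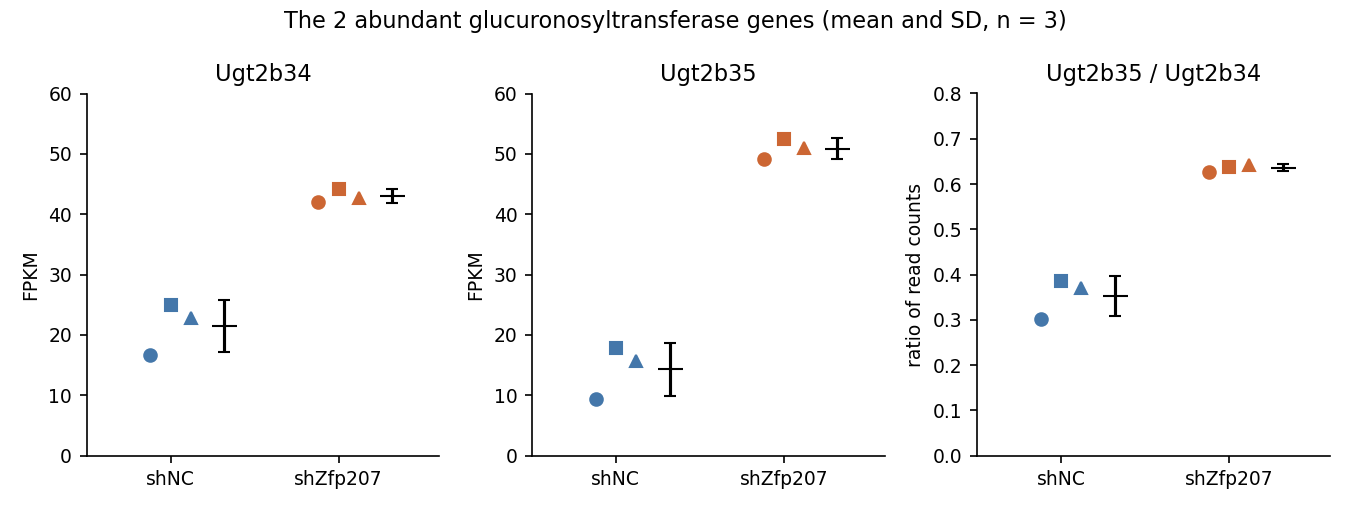
FPKM of Ugt2b34 and Ugt2b35 and the ratio of their read counts (y axes, from 0) in the 3 shNC and 3 shZfp207 libraries, with mean and SD. The ratio lies between 0.302 and 0.385 in control libraries and between 0.627 and 0.642 in knockdown libraries.

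The rest of the Ugt2 cluster on chromosome 5 was close to silent in both groups. The genes Ugt2b34 and Ugt2b35 are 93922 bases apart on opposite strands, and Ugt2b1 lies between them with 5 to 11 counts per library. Ugt2b36, Ugt2b37, Ugt2b38, Ugt2a1, Ugt2a2 and Ugt2a3 had no count in any library, and Ugt2b5 had 1 count. The promoters of the 2 active genes are shown because they rose together from one cluster. They are the 250 bases before the start in that build, chr5:86906938-86907187 (minus) and chr5:87000610-87000859 (plus), written 5′ to 3′ on the strand of each gene.
Ugt2b34: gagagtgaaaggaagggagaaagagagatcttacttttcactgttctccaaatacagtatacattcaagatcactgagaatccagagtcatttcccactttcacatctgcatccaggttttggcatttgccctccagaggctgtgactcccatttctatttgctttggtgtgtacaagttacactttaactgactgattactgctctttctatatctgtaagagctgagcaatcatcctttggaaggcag
Ugt2b35: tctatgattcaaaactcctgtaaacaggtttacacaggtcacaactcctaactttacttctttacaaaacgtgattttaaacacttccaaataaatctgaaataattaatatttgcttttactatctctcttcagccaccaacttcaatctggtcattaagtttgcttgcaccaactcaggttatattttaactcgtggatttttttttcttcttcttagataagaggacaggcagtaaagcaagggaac
Neither window holds either motif, so no letters are in capitals. That says only that these letters are not in these 250 bases.

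The Ugt1a locus contributed few counts, and 1 of its genes rose. Its genes are alternative first exons on chromosome 1 joined to shared last exons, and 50.3% to 60.6% of the exonic bases of each overlap other genes on the same strand, so how shared reads were counted bears on each value. Ugt1a6b (ENSMUSG00000090145, chromosome 1, 88103252 to 88219003), of a subgroup known for conjugating small phenols, had 6, 0 and 0 counts in control replicates 1 to 3 and 35, 37 and 28 counts in knockdown replicates 1 to 3. All 6 control counts were thus in control replicate 1. Of the 50-base windows in Ugt1a6b transcripts 79.8% also occur in transcripts of other genes. The ratio of summed counts per library total was 15.9 (95% exact counting interval 7.04 to 44.3, counting error only), with a fitted log2 fold change of 3.87 (standard error 0.911, edgeR's adjusted p = 0.0293). Without control replicate 1 the controls had 0 counts, and 3 counts over them, taken as the limit of 0, would give a ratio of 22.9. That ratio takes the 100 knockdown counts as exact and leaves out the only control library with counts. The edgeR call was lost without any 1 of the other libraries, with adjusted p up to 0.11, and Ugt1a6b too entered the test through its knockdown counts. Ugt1a1, the bilirubin-conjugating gene, had 0 to 5 counts per library, Ugt1a9 0 to 14, and Ugt1a6a, Ugt1a7c and Ugt1a10 at most 7. Ugt1a2, Ugt1a5 and Ugt1a8 had none, nor had Ugt3a1 and Ugt3a2.

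Sulfotransferase genes were the least expressed class, and neither of the 2 tested passed. Sult1c2, of a cytosolic family acting on phenols, had 3.56, 5.57 and 7.49 CPM in the 3 control libraries, against 5.24, 4.41 and 4.48 CPM in the 3 knockdown libraries (log2 fold change -0.24, standard error 0.285, edgeR's adjusted p = 0.589). Sult2b1, whose products include cholesterol sulfate, had 3.23, 5.98 and 4.24 CPM against 2.95, 4.68 and 4.76 CPM (log2 fold change -0.12, standard error 0.306, edgeR's adjusted p = 0.806). The ranges of the 2 groups overlap for both genes, and 0 passed an unadjusted 0.05 in edgeR or an adjusted 0.05 in DESeq2. Sult1b1, which acts on thyroid hormones, had 5, 4 and 3 counts in control and 7, 15 and 18 counts in knockdown replicates 1 to 3, too few for the filter with all libraries. Fits of all 6 libraries with a looser filter did not call it, with adjusted p of 0.136 in edgeR and 0.115 in DESeq2. It passed without control replicate 1 (edgeR's adjusted p = 0.033) and in no fit that left out another library. Sult1a1, the main phenol sulfotransferase of liver, had 0 counts in the controls and 3, 2 and 2 in knockdown cells. Of the 19 genes 10 had no count, among them Sult2a2, Sult2a3, Sult2a4, Sult2a6, Sult2a7 and Sult2a8 of the Sult2a group, which sulfates bile acids and steroids, and Sult2a1 and Sult2a5 had at most 2 counts.

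Summed over subfamilies, which is less affected by reads shared between paralogs, the Ugt sums were higher and most glutathione transferase sums lower in knockdown cells, with no test of these sums. Sums of CPM before TMM scaling went from 182.9 ± 41.7 to 441 ± 12.7 for Ugt2b and from 1.01 ± 0.31 to 3.25 ± 0.26 for Ugt1a genes (SD, n = 3 each). Of the 11, 11 and 22 Ugt1a counts in control replicates 1 to 3, Ugt1a6b gave 6, 0 and 0. In knockdown replicates 1 to 3 it gave 35, 37 and 28 of 47, 47 and 52, so the Ugt1a rise came mostly from this 1 gene. The Gsto sum went from 372.8 ± 17.7 to 275.1 ± 13.5, the Gstp sum from 192.9 ± 19.8 to 137.1 ± 8.58, the Mgst sum from 53.8 ± 3.67 to 39.5 ± 3.03 and the Gsta sum from 25.7 ± 3.97 to 18 ± 1.46. The Gstm sum was 144.2 ± 14.5 in control and 151.2 ± 8.3 in knockdown cells, within the spread of the libraries. The Gstt sum was higher in knockdown cells, going from 9.22 ± 1.95 to 11.4 ± 0.91, with overlap between the groups. The Gstk sum went from 6.29 ± 2.09 to 4.11 ± 0.42 and the Gstz sum from 11.8 ± 2.02 to 10.9 ± 1.18. Per length, the deposited FPKM of the 3 classes summed to 526 ± 26.6 in control and 403.6 ± 19.5 in knockdown cells for glutathione transferases, to 36.2 ± 8.8 and 94.9 ± 2.8 for glucuronosyltransferases, and to 4.7 ± 1.1 and 4.2 ± 0.1 for sulfotransferases. The Mgst sum depends on the unit, since its ratio of knockdown to control was 0.734 in CPM and 0.959 in FPKM, where Mgst3 weighs more.

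**Figure D4:**
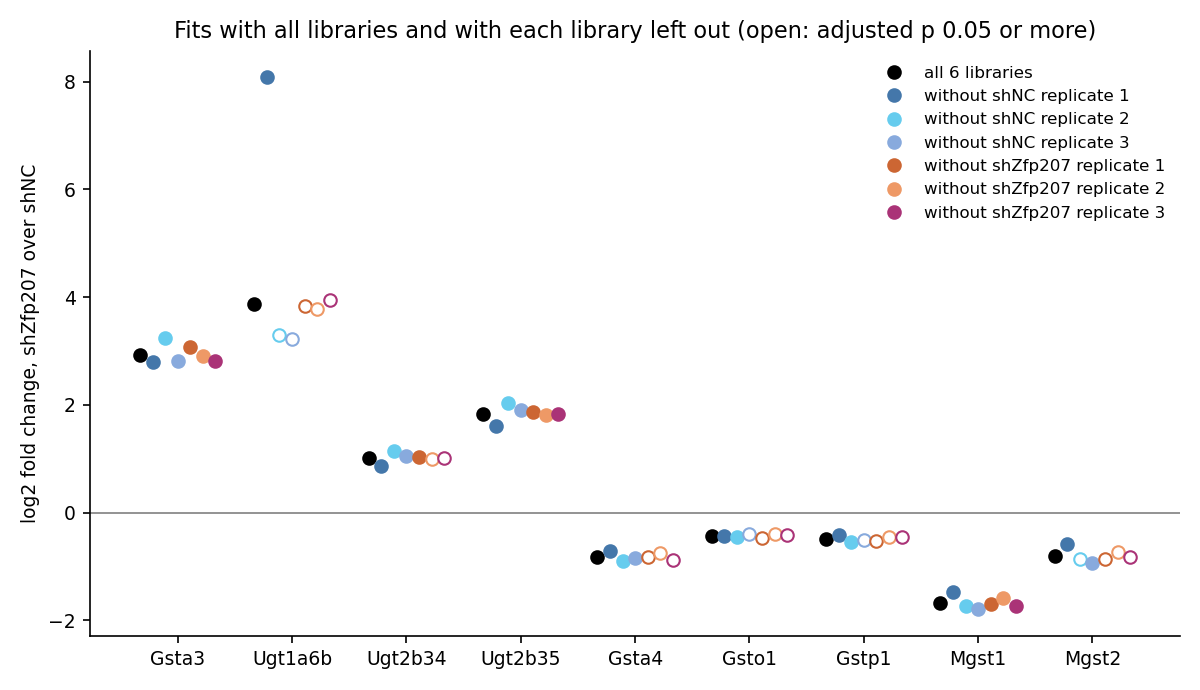
Log2 fold change (y axis) of the 9 called genes in the fit of all 6 libraries and in the 6 fits that leave out 1 library, with open points where the adjusted p is 0.05 or more. No gene changes direction, Gsta3, Ugt2b35 and Mgst1 stay filled in every fit, and the value of 8.08 for Ugt1a6b is a fit against 0 control counts and no measure of size.

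Only Gsta3, Ugt2b35 and Mgst1, of the 9 called members, kept their call in each of the 6 fits that left out 1 library, and all 9 kept their direction. Each of the 9 kept its call without control replicate 1. Without that library the log2 fold changes of Ugt2b35, Ugt2b34, Mgst1 and Mgst2 were smaller in size, at 1.61, 0.86, -1.47 and -0.59. Those of Gsta3, Gsta4 and Gstp1 were also smaller, at 2.79, -0.71 and -0.41. With knockdown replicate 1, 2 or 3 left out, 4, 3 and 3 members passed. Gstm7 passed when control replicate 2 was left out (edgeR's adjusted p = 0.0437) and Gstt2 when control replicate 3 was (0.0449), each in that fit alone. Control replicate 1 lay farther from the knockdown libraries than the other controls in all the genes listed above as smaller without it. For Ugt1a6b it was the only control with counts.

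Of 16 tested genes of glutathione supply and turnover, 1 was higher and 2 lower, which at 18.8% is near the 20.6% of all genes tested. Gclc, the catalytic subunit of the enzyme that limits glutathione synthesis, rose from 50.2 ± 7.89 to 75.3 ± 4.81 CPM (log2 fold change 0.59, standard error 0.133, edgeR's adjusted p = 0.0258). The Gclc call was lost without any 1 library other than control replicate 1, with edgeR's adjusted p up to 0.111. Its partner subunit Gclm, named after its values were seen, had a log2 fold change of 0.53 (standard error 0.158, edgeR's adjusted p = 0.0576). Ggt7 and Ggt6, of the gamma-glutamyltransferase family that cleaves extracellular glutathione, fell by 1.89 and 1.5 on the log2 scale (edgeR's adjusted p = 0.0106 and 0.0132). Ggt6 was low, at 2.23 ± 0.286 CPM in control and 0.783 ± 0.1 CPM in knockdown cells, and entered the test through its control counts. Its call was lost without any 1 knockdown library, and that of Ggt7 without knockdown replicate 2 or 3 (edgeR's adjusted p up to 0.0764 and 0.0607). When control replicate 1 was left out, 5 genes of the list were higher and 4 lower (56.2%, near the 52.1% of all genes tested), and 0 to 2 passed without another library.

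Of 10 genes around UDP-glucuronic acid, 3 were higher and 1 lower (40%, against 20.6% of all genes tested). Ugdh and Ugp2, which make the donor, gave log2 fold changes of 0.16 and 0.25, with edgeR's adjusted p of 0.265 and 0.107, and were named after their values were seen. Gusb, the lysosomal glucuronidase that removes glucuronic acid, rose from 106.2 ± 4.6 to 151.1 ± 3.6 CPM (log2 fold change 0.51, standard error 0.082, edgeR's adjusted p = 0.00925). The Gusb call was lost without knockdown replicate 2 or 3 (edgeR's adjusted p up to 0.0641). Dcxr and Gulo, enzymes that use products of glucuronic acid, rose by 0.71 and 1.37 on the log2 scale, Gulo from 1.06 ± 0.133 to 2.76 ± 0.854 CPM. The Dcxr and Gulo calls were lost without any 1 library other than control replicate 1. Xylb, the xylulose kinase downstream of Dcxr, fell from 11.4 ± 2.73 to 3.49 ± 0.504 CPM (log2 fold change -1.69, standard error 0.227, edgeR's adjusted p = 0.00601). Leaving out control replicate 1 gave 7 higher and 1 lower (80%, against 52.1% of all genes tested), and 1 or 2 passed without another library.

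Of 14 tested genes of sulfate supply and release, 3 were higher and 1 lower (28.6%, against 20.6% of all genes tested). The sulfatase genes Arsg and Arsa had log2 fold changes of 0.79 and -0.95 (edgeR's adjusted p = 0.0119 and 0.0183), and Impad1, which removes the by-product of sulfation, and Sumf2, a partner of sulfatases, rose by 0.38 and 0.40 on the log2 scale. The Impad1 and Sumf2 calls were lost without any 1 library other than control replicate 1. That of Arsg was lost without any 1 knockdown library, and that of Arsa without control replicate 3 or knockdown replicate 2 or 3. Papss1 and Papss2, which make PAPS, showed log2 fold changes of -0.02 and 0.30, with edgeR's adjusted p of 0.958 and 0.435, and were named after their values were seen. The fit leaving out control replicate 1 had 6 higher and 2 lower (57.1%, against 52.1% of all genes tested), and 0 to 2 passed without another library. Of 6 tested genes of other conjugating enzymes 0 were higher, also at an unadjusted 0.05 and in DESeq2, and 3 were lower, against 10.7% lower among all genes tested. Of those 3, the methyltransferase genes Tpmt and Gnmt fell by 1.43 and 2.03 on the log2 scale, with Tpmt going from 6.23 ± 0.778 to 2.31 ± 0.195 CPM (edgeR's adjusted p = 0.0063). Gnmt was low, at 2.23 ± 0.223 CPM in control and 0.54 ± 0.192 CPM in knockdown cells, and entered the test through its control counts. Its call was lost without knockdown replicate 1 or 2 (edgeR's adjusted p up to 0.0607). Without knockdown replicate 1 or 2, 1 gene of that list passed.

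**Figure D5:**
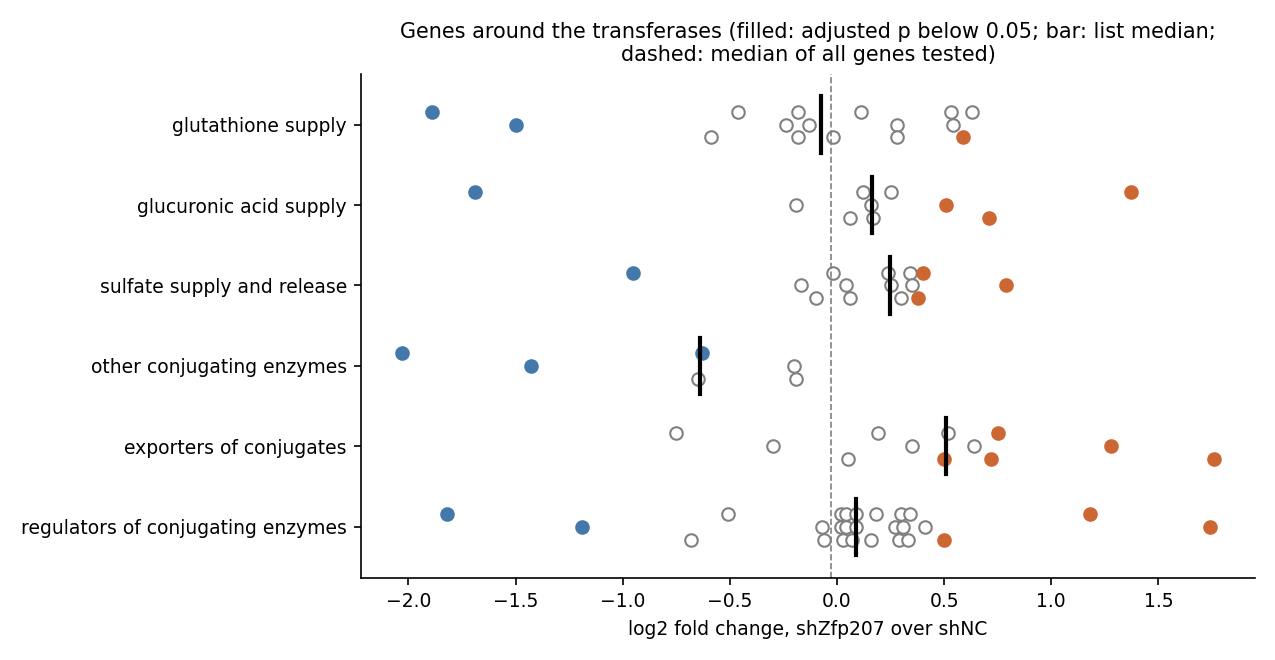
Log2 fold change (x axis) of each tested gene of 6 lists around the transferases, with genes past the threshold filled, the list median as a bar and the median of all genes tested dashed. The exporter list, which includes Rdx and Ezr, has 5 filled points on the right and none on the left, and the other conjugating enzymes 3 on the left and none on the right.

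Of 12 tested genes in the list of exporters of conjugates, 5 were higher (41.7%, against 9.92% higher among all genes tested) and 0 lower. The median log2 fold change was 0.51 against -0.03 over all genes tested, and 0 were lower at an unadjusted 0.05 or in DESeq2. The 12 include Rdx and Ezr, which link the membrane to the cytoskeleton and are no exporters. Their log2 fold changes were 0.19 and -0.30 (edgeR's adjusted p = 0.588 and 0.286), and both were named after their values were seen. Abcb1b, a P-glycoprotein gene, went from 67.4, 71.4 and 73.7 CPM in the control libraries to 165.7, 177.2 and 174.7 CPM in knockdown replicates 1 to 3 (log2 fold change 1.28, standard error 0.085, edgeR's adjusted p = 0.00153). Abcc5, of the multidrug resistance proteins, and Abcg2, which exports sulfate conjugates among others, rose by 0.72 and 0.50 on the log2 scale. Abcc12 rose by 1.76 on that scale. It had 11, 9 and 14 counts in control and 40, 45 and 36 counts in knockdown replicates 1 to 3. Abcc12 entered the test through its knockdown counts and is counted in the 41.7%, so that share leans on it. The fifth was Abcc3, an exporter of glucuronides, named after its values were seen, which rose by 0.75 on the log2 scale (edgeR's adjusted p = 0.0317). The Abcc3 call was also lost without control replicate 3 or any 1 knockdown library, with edgeR's adjusted p up to 0.115. Abcc2, the canalicular exporter, was abundant and did not pass (log2 fold change 0.05, standard error 0.153, edgeR's adjusted p = 0.857), and it too was named after its values were seen. The fit that left out control replicate 1 had 8 higher and 1 lower (69.2%, against 52.1% of all genes tested), and 2 to 5 passed without another library. The 1 lower was Ezr (log2 fold change -0.49 in that fit).

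Of 26 tested regulators, 3 were higher and 2 lower, which at 19.2% called is near the 20.6% of all genes tested. Their median log2 fold change was 0.09. Nr1h4, the bile acid receptor FXR, fell from 14.5 ± 1.14 to 6.37 ± 0.792 CPM (log2 fold change -1.19, standard error 0.15, edgeR's adjusted p = 0.00523). Nr5a2, the receptor LRH-1, rose by 1.18 and Nfe2l1, a relative of NRF2, by 1.74 on the log2 scale. The Nfe2l1 value leaned on 1 library, with 215.8, 195.6 and 480.9 CPM in knockdown replicates 1 to 3 against 52.6, 101.4 and 112.4 CPM in the controls, and without knockdown replicate 3 it was 1.21 (edgeR's adjusted p = 0.0887). The call held without control replicate 1 and was lost without any 1 of the other libraries. The other rise was Rxra (log2 fold change 0.50), whose call was likewise lost without any 1 library other than control replicate 1. The transcripts of NRF2 and its inhibitor, Nfe2l2 and Keap1, and of Ahr and Hnf4a had log2 fold changes of 0.27, 0.09, 0.31 and 0.02 and did not pass, with edgeR's adjusted p from 0.172 to 0.927. Rxra and these 4 were named after their values were seen. Nr1i2, the drug receptor PXR, had 1 count in all, and its relative Nr1i3 (CAR) had 0.996 ± 0.219 CPM in control and 0.694 ± 0.106 CPM in knockdown cells (edgeR's adjusted p = 0.314). Both were also named after their values were seen. With control replicate 1 left out, 9 regulators were higher and 2 lower (42.3%, below the 52.1% of all genes tested), and 1 to 3 passed without another library.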

How the data were processed

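RNA was measured in 3 control and 3 knockdown libraries of Hepa1-6 cells. The deposited count table holds whole-number read counts per gene with no normalization, per the file headers, and a second table holds the authors' FPKM values. The submitters' processing notes list the build mm10, the tool featureCounts (version 1.5.0-p3) and the tool HISAT2 (version 2.0.5), with no role or order. The sources used here give neither the annotation nor the strand setting nor the treatment of reads shared between genes, so reads of paralogs and of overlapping genes may be mixed. The gene length implied by the deposited count and FPKM values was 0.33 to 2.42 times the exonic length in GENCODE M21 over 24 members, which bears on levels compared between genes. No per-sample columns of other samples were present. Library totals and the limit of 3 counts are given with the results.

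Members, gene lists and tests were chosen with earlier results of these data known. Counts were filtered with filterByExpr, scaled by TMM and tested with edgeR 4.0.16 in R 4.3.3 (quasi-likelihood, group as only term, 6 libraries). The p-values are two-sided, with Benjamini-Hochberg adjustment over all 11975 genes tested. The SE is the size of the log2 fold change divided by the square root of the F statistic. Named were Zfp207, all called members, members whose groups do not overlap with a mean of at least 1 CPM in one group, the 5 members with the highest mean FPKM and the 2 highest of each class. From each pathway list up to 4 called genes with the smallest p were named. On simulated counts for 11975 genes, 200 of them changed, the procedure found 3% of the 1.5-fold, 47.8% of the 2-fold and 93.9% of the 4-fold changes. Of its calls there 4% were false. The simulation had far fewer changed genes than the 2466 called in these data, and no library that stood apart like control replicate 1. Its shares therefore need not hold for this comparison.

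All 64 members were found in GENCODE M21 (GRCm38), 51 with the deposited start and end, and coordinates are the deposited ones. Shared windows are stretches of 50 bases of a member's transcripts that occur in a GENCODE transcript of another gene on either strand. Promoters are from RefSeq (GRCm38.p6), and the other 8 members (Gsta4, Gstt2, Sult2a1, Sult2a2, Sult2a7, Sult4a1, Ugt1a6b and Ugt3a2) were not matched there. A planned comparison of protein sequences was not run, and some planned genes and a motif are not reported here. The alternatives were 2 other scalings (RLE, upper quartile), 2 other filters (1 count in all, 1 CPM in 3 libraries), DESeq2 1.42.0, the replicate number as a block, and each library left out in turn. Other members are named to account for all 64.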

Additional observations from a re-analysis of the deposited data

How the results depend on the processing

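The 9 called members were the same 9 under RLE and upper-quartile scaling, without a filter beyond 1 count, with at least 1 CPM in 3 libraries and in DESeq2. With the replicate number as a block, 5 members and 987 of all genes passed, against 9 and 2466. The replicate numbers share only a number. The deviations of same-numbered libraries from their group means correlated at -0.008, 0.008 and 0.053, and control replicate 1 correlated best with knockdown replicate 2 (0.024). Under the block the calls of Gsto1, Gstp1, Mgst2 and Ugt1a6b were lost, and the lists of glutathione, glucuronic acid and sulfate supply had 1, 1 and 2 calls, exporters 3 and regulators 3. With 1 library left out, 534 to 6313 of all genes and 3 to 11 members passed. The calls then ranged from 0 to 9 for glutathione supply, 1 to 8 for glucuronic acid supply, 0 to 8 for sulfate supply, 1 to 3 for other conjugating enzymes, 2 to 9 for exporters and 1 to 11 for regulators. In most of these the maximum is the fit without control replicate 1. Glutathione supply had 5 calls in DESeq2, and sulfate supply had 2 without the filter. The Mgst sum ratio was 0.959 in FPKM. Of 96 alternative values of 12 subfamily sums, 95 stayed within 1 SD of the ratio. No named gene with a call changed direction. Upper-quartile scaling moved the median of all genes to -0.09 and the split of calls to 1011 higher and 1573 lower. Depth limits the members that were not tested, which had at most 20 counts in any library.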
